A study of Chlamydomonas reinhardtii with 12 samples.

Results

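The comparison described here sets the *phot* mutant of *Chlamydomonas reinhardtii* against the wild type (WT) after a 60 min step to high light (HL), in 6 of the 12 libraries of the study, 3 per strain, chosen by their strain and light labels. Both strains, the WT CC-125 and *phot*, in which the phototropin gene *PHOT1* is disrupted, were grown in acetate-containing medium (TAP), moved to acetate-free medium (HSM) and held in low light (LL) at 5 µmol of photons per square metre and second before the step to 300 in the same unit. The mutant was a single strain and its complemented line was not analysed here, so the loss of *PHOT1* and any other difference between the strains cannot be told apart. The 6 LL libraries, taken before the light step, entered the same fit and are used where a strain difference in HL is set against that in LL. The study's methods call the 3 samples of a group biological replicates, and the labels do not say more about how the cultures were separated.

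*C. reinhardtii* is a unicellular green alga that gathers light with chlorophyll proteins of the LHC family bound to photosystem I and photosystem II. Phototropin is a blue-light receptor kinase of the cell, best known in this alga for its part in the sexual cycle, in eyespot size and in switching on photoprotection. In strong light the alga makes LHCSR and PSBS proteins, which carry qE, the rapidly reversible loss of excess excitation as heat. When CO2 is scarce it runs a CO2 concentrating mechanism (CCM), in which transporters and carbonic anhydrases raise the CO2 level around Rubisco in the pyrenoid.

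The HL libraries held between 27463779 and 33906264 counts. Levels are given as CPM, the count of a gene divided by the library size and expressed per 1e6 counts, scaled by TMM, a factor that corrects for differences in library make-up, and for *phot* minus WT as log2 fold change ± SE. TMM factors were between 0.885 and 1.00 in WT HL and between 1.13 and 1.23 in *phot* HL, so they moved with the strain. WT HL library A stood apart from WT HL library B, with a correlation of 0.975 across genes against 0.989 to 0.994 for the other pairs of HL libraries, and results that turn on it are given with and without it. All values are relative to the other transcripts of a library, so a change in total RNA per cell would not be seen, and fewer cells that express a gene cannot be told apart from less of its RNA per cell. *PHOT1* (Cre03.g199000) itself had 250.1, 241 and 240.4 CPM in WT HL against 4.76, 4.33 and 4.64 in *phot* HL, so the libraries of the 2 strains were far apart for the disrupted gene.

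The strains differed widely. Of 14251 tested genes, 10470 (73.5%) passed an adjusted p of 0.05 (edgeR quasi-likelihood test, Benjamini-Hochberg), 38.1% higher and 35.4% lower in *phot*, and 10783 (75.7%) had no overlap between the 3 libraries of each strain. Because most genes passed, gene groups are described by the genes that passed and also differed by more than 2-fold, here called beyond 2-fold. These were 2666 genes higher in *phot* (18.7%) and 2276 lower (16%), together 34.7% of the tested genes, and the median of all genes was 0.05. More than 16-fold differences were seen in 211 higher and 92 lower genes, and more than 64-fold in 47 and 16. The balance of directions depended on the scaling. With library totals the median moved to 0.36, and 71.3% of the genes beyond 2-fold were higher in *phot* in place of 53.9%. With upper-quartile factors these values were 0.22 and 64.0%, and with median-of-ratios factors -0.03 and 49.9%, so no majority direction is reported. Under all 4 scalings 2485 genes were higher and 1495 lower beyond 2-fold.

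Of the gene groups in the study's photoprotection and CCM lists, the photosystem II antenna had the highest median difference. Of its 12 genes, 11 were higher in *phot* HL beyond 2-fold and 0 lower, against 18.7% and 16% of all tested genes, with a median of 5.52. These genes encode the LHCBM proteins of the major trimeric antenna, the minor monomeric antennae LHCB4 and LHCB5, and LHCB7. In WT the summed level of the 12 genes was between 6033 and 6970 CPM in LL and between 835 and 1082 CPM after 60 min of HL. In *phot* it was between 21288 and 24439 CPM in LL and between 21847 and 23694 CPM in HL. The summed antenna messages were thus 6.93 times as high in WT LL as in WT HL but 1.02 times as high in *phot* LL as in *phot* HL. In HL the sum was 24.6 times as high in *phot* as in WT. Single genes moved both ways in *phot* from LL to HL. *LHCBM4* went from 248 to 120 CPM and *LHCBM6* from 4012 to 2812, while *LHCBM3* went from 1967 to 2993 and *LHCB4* from 2019 to 3109. As a share of raw counts, with no scaling factor, the antenna held 0.0738% to 0.108% in WT HL and 2.53% to 2.92% in *phot* HL. The deposited counts could have split reads between near-identical *LHCBM* copies, which would not move the sum, while reads left out because they matched several copies would lower it.

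*LHCBM7* (Cre12.g548950) had the largest rise of the group, from 18.0, 30.6 and 23.2 CPM in WT HL to 2542, 2929 and 2705 CPM in *phot* HL, a difference of 6.83 ± 0.24 (edgeR, adjusted p = 1.53e-11). *LHCBM4* (Cre06.g283950) stood at 2.06, 1.77 and 1.27 CPM in WT HL and at 114, 135 and 112 CPM in *phot* HL, 6.15 ± 0.20 higher. For *LHCB5* (Cre16.g673650) the WT HL libraries had 31.2, 37.7 and 33.4 CPM and the *phot* HL libraries 2115, 2277 and 2208 CPM, 6.01 ± 0.14 higher. In each of these genes the lowest *phot* library lay far above the highest WT library. The other 8 genes that rose lay between 3.44 ± 0.15 for *LHCBM8* and 5.83 ± 0.19 for *LHCBM6*, with *LHCBM3* at 5.70, *LHCBM2* at 5.54, *LHCBM9* at 5.49, *LHCBM5* at 4.22, *LHCBM1* at 3.86 and *LHCB4* at 3.59. *LHCB7* (Cre02.g110750) was the exception, with 32.7, 25.2 and 26.0 CPM in WT HL against 21.0, 21.2 and 21.7 in *phot* HL, a difference of -0.39 ± 0.11 (edgeR, adjusted p = 0.00388) that did not pass with library totals (-0.07) or upper-quartile factors (-0.21).

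**Figure D1:**
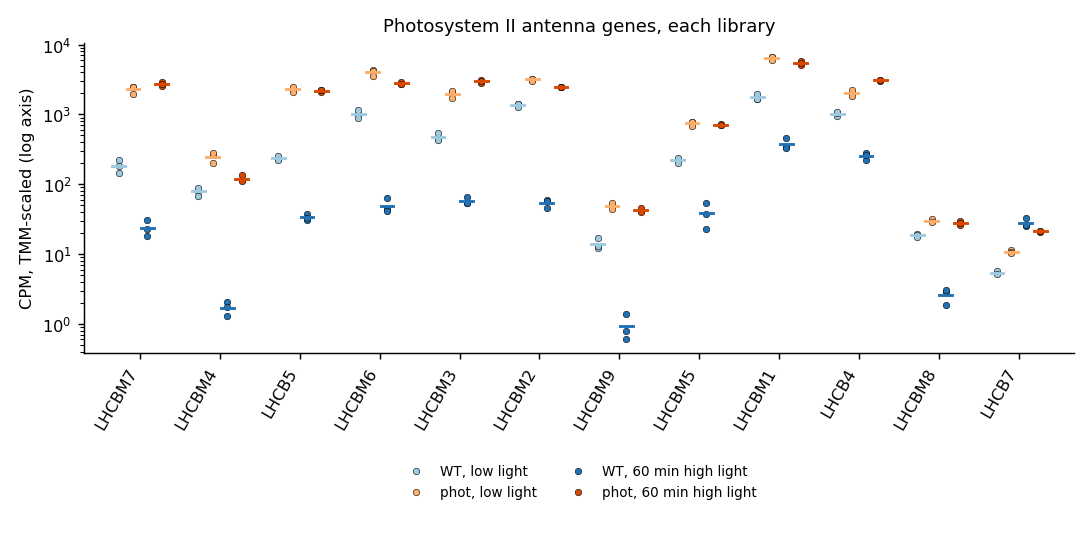
Level of each photosystem II antenna gene in every library, in CPM scaled by TMM on a log axis, with 3 libraries per group as points and their mean as a bar. Genes are ordered by the log2 fold change in HL, and in all but *LHCB7* the WT HL libraries lie below the other 3 groups, and the *phot* HL libraries lie above every WT library.

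The antenna difference in HL was larger than that in LL for the same 11 genes. Already in LL all 12 genes were higher in *phot*, by 0.69 (*LHCBM8*) to 3.64 (*LHCBM7*). The HL difference minus the LL difference was positive and past the threshold for the 11 genes, from 1.99 ± 0.20 for *LHCBM1* to 4.50 ± 0.24 for *LHCBM4* (edgeR interaction test, adjusted p = 2.85e-06 and 1.08e-08), and negative for *LHCB7*, at -1.38 ± 0.16 (adjusted p = 8.16e-06). Over all tested genes 51.8% passed this test, and 23.5% had a positive and 28.3% a negative interaction past the threshold. *LHCBM2*, with 1361 ± 66.0 CPM in WT LL and 53.9 ± 7.18 CPM in WT HL, had 3168 ± 106 CPM in *phot* LL and 2507 ± 6.41 CPM in *phot* HL (SD, n = 3). *LHCB7* went the other way, from 5.41 ± 0.330 to 28.0 ± 4.12 CPM in WT and from 10.8 ± 0.493 to 21.3 ± 0.348 CPM in *phot*.

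Among 9 genes of photosynthetic electron transport, which the study lists with the CCM, 6 were higher in *phot* HL beyond 2-fold and 0 lower, with a median of 1.70. Of all tested genes, 18.7% were higher and 16% lower beyond 2-fold. *PSBQ* (Cre08.g372450), a protein of the oxygen-evolving complex, had 78.1, 138 and 113 CPM in WT HL against 1989.6, 2109 and 2085 in *phot* HL, 4.23 ± 0.19 higher (edgeR, adjusted p = 1.73e-10). *ULP1* (Cre01.g051500) rose from 59.1, 76.7 and 65.2 to 824, 831 and 833 CPM, by 3.63 ± 0.14. The photosystem I subunit *PSAG* (Cre12.g560950) stood at 215, 197 and 208 CPM in WT HL and at 970.4, 1011 and 1023 CPM in *phot* HL, 2.28 ± 0.11 higher. The photosystem I subunits *PSAH* (2.05 ± 0.11) and *PSAK* (1.70 ± 0.16) and the cytochrome *CYC6* (1.26 ± 0.17) also rose. They had no overlap between the strains, as had 75.7% of all tested genes. *PSBP3* was at -0.99 ± 0.13 and *FDX1*, the main ferredoxin, at -0.48 ± 0.15, a call that was lost with library totals (-0.16), with upper-quartile factors (-0.30) and with WT HL library A and *phot* HL library A both left out (-0.46). *PSBP4* was at -0.29 ± 0.13 (edgeR, adjusted p = 0.0578), or -0.44 without WT HL library B (adjusted p = 0.00421) and -0.32 without *phot* LL library C (adjusted p = 0.0416), and it also passed with median-of-ratios factors (-0.36), with no filter (-0.31) and in DESeq2 (-0.36). The interaction was positive for the 6 genes that rose, from 1.39 for *PSAH* to 3.42 for *CYC6*, which had under 1 CPM in LL in both strains, and negative for *PSBP3* (-1.51) and *PSBP4* (-1.40).

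All 4 qE effectors that passed the filter were lower in *phot* HL beyond 2-fold, as were 16% of all tested genes. This direction was opposite to that of the 11 antenna genes. The median of the 4 effectors was -2.05. Summed over the 5 effectors, the level lay between 8982 and 16347 CPM in WT HL and between 2862 and 4096 CPM in *phot* HL. WT HL library A was the highest library for each effector. *LHCSR3.1* (Cre08.g367500) had 7373, 4300.4 and 5099 CPM in WT HL against 1365, 922 and 1364 in *phot* HL, and *LHCSR3.2* (Cre08.g367400) had 7658, 4367 and 5202 CPM against 2534, 1789 and 2507 CPM. These differences were -2.20 ± 0.21 and -1.33 ± 0.20. The study describes the 2 *LHCSR3* genes as differing only slightly, in their promoters, and *PSBS1* and *PSBS2* as highly similar. Values of single copies therefore depend on how reads that match both copies were counted. *LHCSR1* (Cre08.g365900) stood at 1217, 294 and 442 CPM in WT HL and at 195, 149.8 and 176 CPM in *phot* HL, with a difference of -1.91 ± 0.36 that was -1.11 when WT HL library A was left out. *PSBS2* (Cre01.g016750) had 50.9, 11.7 and 18.0 CPM in WT HL against 1.86, 0.741 and 1.28 in *phot* HL, a difference of -4.39 ± 0.49, or -3.57 without that library. *PSBS1* (Cre01.g016600), with 49.2, 8.71 and 12.7 CPM in WT HL against 0.419, 0.287 and 0.576 in *phot* HL, was under the filter, and with no filter it was at -5.82, or -4.69 without WT HL library A. The strains did not overlap for any of the 5, as was the case for 75.7% of all tested genes.

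**Figure D2:**
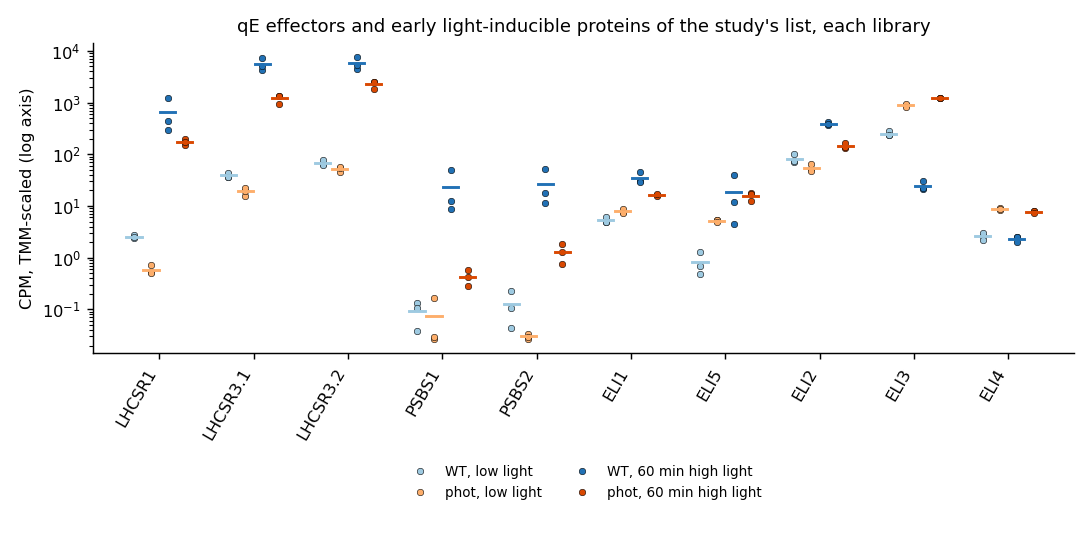
Level of the qE effectors and of the 5 genes the study lists as early light-inducible proteins in every library, in CPM scaled by TMM on a log axis, with 3 libraries per group as points and their mean as a bar. The qE effectors lie lower in *phot* HL than in WT HL, while the gene listed as ELI3 lies at 21.6 to 30.5 CPM in WT HL and at 1199 to 1233 CPM in *phot* HL.

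The 5 genes listed as early light-inducible proteins, relatives of the antenna proteins that appear under light stress, did not move together. *ELI2* (Cre09.g393173) fell from 417, 364 and 386 CPM in WT HL to 132, 137 and 162 CPM in *phot* HL, a difference of -1.44 ± 0.15, and *ELI1* (Cre16.g679250) was at 45.1, 30.0 and 29.1 against 16.7, 15.4 and 17.1 CPM, at -1.08 ± 0.15. *ELI4* (Cre05.g247400) was higher, with 2.51, 2.47 and 2.05 CPM in WT HL against 7.82, 7.94 and 7.20 in *phot* HL, at 1.71 ± 0.14. The gene whose identifier (Cre06.g278213) the study pairs with the name ELI3 rose from 30.5, 21.6 and 22.3 to 1199, 1229.6 and 1233 CPM, by 5.62 ± 0.16, a size within the range of the antenna genes. That pairing was not checked against a sequence. *ELI5* overlapped between the strains, with 39.4, 4.38 and 11.9 CPM in WT HL against 18.0, 12.4 and 16.7 in *phot* HL. Its direction turned on WT HL library A, from -0.22 ± 0.49 with it (edgeR, adjusted p = 0.694) to 0.94 without it (adjusted p = 0.01002).

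*STT7* (Cre02.g120250), the kinase of state transitions, had 531, 408 and 468 CPM in WT HL against 219, 192 and 214 in *phot* HL, at -1.17 ± 0.12. *PSBR* (Cre06.g261000), a photosystem II protein, had 1606, 1925 and 1940.1 CPM in WT HL against 3832, 4218 and 4785 in *phot* HL, 1.23 ± 0.16 higher, after a difference of -0.87 in LL. Of the 14 photoreceptors, 3 were lower beyond 2-fold and 0 higher, with a median of -0.64. The 21.4% lower stood against 16% of all tested genes, of which 18.7% were higher. The 3 were *PHOT1*, the disrupted gene itself, and both channelrhodopsins, the light-gated ion channels of the eyespot. The fall of *PHOT1* was fixed by the choice of mutant, so the 21.4% is not read as an excess. *CHR1* (Cre14.g611300) was at 338, 441 and 387 against 199, 174 and 172 CPM (-1.10 ± 0.12), and *CHR2* (Cre02.g085257) at 72.8, 73.6 and 77.7 against 40.8, 32.1 and 35.7 CPM (-1.05 ± 0.11). In LL the *CHR2* difference was -0.09 (edgeR, adjusted p = 0.494), and its interaction was -0.96 ± 0.16. The singlet oxygen response genes *SOR1* and *SAK1* overlapped between the strains and were at 0.27 ± 0.20 and 0.19 ± 0.11 (edgeR, adjusted p = 0.228 and 0.140), and they passed with library totals, at 0.57 and 0.52, *SAK1* also with upper-quartile factors, at 0.37. *NF-YC* (Cre12.g556400), a subunit of a CCAAT-binding factor, was lower, with 26.2, 18.6 and 20.5 CPM in WT HL against 10.9, 10.02 and 11.4 in *phot* HL (-1.01 ± 0.12), and its listed partner *NF-YB* was at -0.92. The falls of *STT7*, *CHR1*, *CHR2*, *ELI1* and *NF-YC* were under 2-fold with library totals and with upper-quartile factors, with their direction and call kept.

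In the group that the study lists for the CRL4 ubiquitin ligase, which marks proteins for destruction, 1 of 6 genes was lower beyond 2-fold and 0 higher. The 16.7% lower lay near the 16% of all tested genes, of which 18.7% were higher. The lower gene, Cre01.g002500, had 1306, 1165 and 1261 CPM in WT HL against 171, 177 and 205 in *phot* HL, at -2.76 ± 0.17, and a like difference in LL (-3.02). The study pairs it with the name COP1, which is also used for chlamyopsin, an eyespot opsin of this alga, and the pairing was not checked against a sequence. Without it, 0 of 5 were beyond 2-fold, with *DDB1* at 0.61 ± 0.09 and *SPA1* at -0.61 ± 0.13, the latter not past the threshold with library totals (-0.28). Over the whole photoprotection list, 14 of 54 tested genes were higher and 12 lower beyond 2-fold, with a median of -0.01. These were 25.9% and 22.2%, the latter with the disrupted gene *PHOT1* included, against 18.7% and 16% of all tested genes. All 14 higher calls and 7 of the 12 lower calls held under the 4 scalings. Over all tested genes 2485 of 2666 higher and 1495 of 2276 lower calls held.

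**Figure D3:**
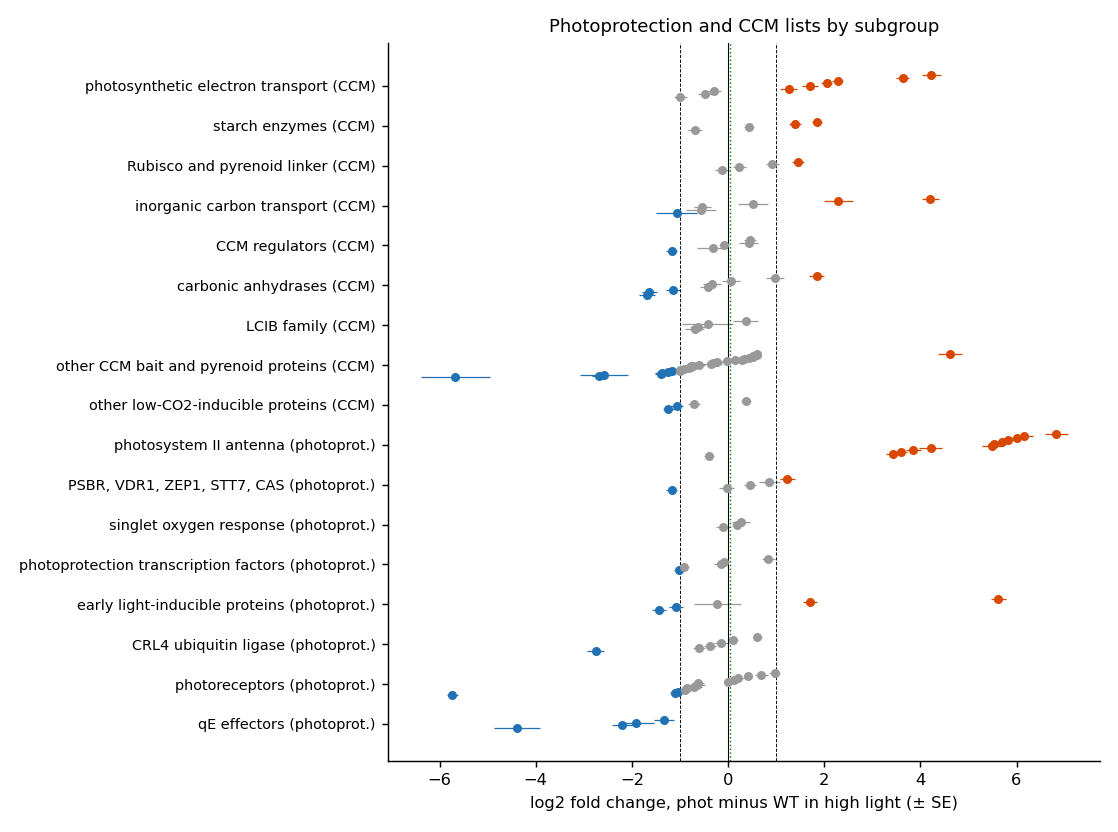
log2 fold change of *phot* minus WT in HL (± SE) for every tested member of the photoprotection and CCM lists, by subgroup. Filled orange and blue points passed the threshold beyond 2-fold, higher and lower in *phot*, grey points did not, dashed lines mark a 2-fold difference and the dotted green line the median of all genes at 0.05. The antenna genes other than *LHCB7* and 6 of the 9 electron transport genes lie to the right, and the qE effectors to the left.

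The CCM list was divided, with 13 of 72 tested genes higher and 14 lower beyond 2-fold and a median of -0.30, against 18.7% and 16% of all tested genes, so both counts lay near the shares over all genes. It shares *STT7* with the photoprotection list. All 13 higher calls and 7 of the 14 lower calls held under the 4 scalings, against 2485 of 2666 and 1495 of 2276 over all tested genes. Among 6 tested inorganic carbon transport genes, *LCI1* (Cre03.g162800), a plasma membrane transporter, rose from 2531, 957 and 1631 CPM in WT HL to 9242, 7309.6 and 8571 CPM in *phot* HL, by 2.30 ± 0.31. In LL *LCI1* was lower in *phot*, with 8.70 ± 2.68 CPM against 63.1 ± 15.3 CPM in WT, at -2.85 ± 0.33. *RHP1* (Cre06.g284100), a Rhesus-type channel protein, had 0.577, 0.335 and 0.389 CPM in WT HL against 7.97, 8.94 and 6.65 in *phot* HL, 4.20 ± 0.18 higher, after 34.02 ± 0.372 CPM in WT LL against 55.7 ± 1.63 in *phot* LL. In the coordinates of the RefSeq annotation of assembly v5.5, *RHP1* lay at 5418050 to 5422395 of chromosome 6, near *LHCBM9* and *LHCBM8* at 5428650 to 5437765, 2 antenna genes with the same direction in HL. *RHP2* (Cre06.g284150), between them by identifier, was under the filter and at -0.46 with no filter (edgeR, adjusted p = 0.654). *CCP2* (Cre04.g222750), with 2396, 586 and 1141 CPM in WT HL against 916, 333 and 720.0 in *phot* HL, overlapped between the strains, and its difference of -1.07 ± 0.43 (edgeR, adjusted p = 0.0350) became -0.42 without WT HL library A (adjusted p = 0.289), -0.78 without *phot* HL library B (adjusted p = 0.122) and -1.17 without *phot* HL library C (adjusted p = 0.0547). It also missed the threshold with library totals (-0.72), upper-quartile factors (-0.88), limma-voom (-0.96) and the HL libraries alone (-1.09).

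Carbonic anhydrases, which interconvert CO2 and bicarbonate, went both ways, with 3 of 8 lower, 1 higher and a median of -0.38. Among all tested genes 16% were lower and 18.7% higher beyond 2-fold. *CAH3* (Cre09.g415700), the enzyme of the thylakoid lumen, had 1253, 821 and 969 CPM in WT HL against 331, 270.3 and 345 in *phot* HL, at -1.68 ± 0.16. Its difference in LL was smaller, with an interaction of -1.20 ± 0.22 (edgeR, adjusted p = 0.000402). *CAH6* (Cre12.g485050) was at 216, 244 and 239 against 77.7, 70.3 and 77.1 CPM (-1.63 ± 0.15), and here the LL difference of -2.40 was the larger. *CAH8* was at -1.14 ± 0.14, or -0.84 with library totals, and *CAH9* (Cre05.g243150) was higher, with 3.99, 5.94 and 6.72 CPM in WT HL against 18.8, 20.3 and 21.1 in *phot* HL (1.84 ± 0.16).

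*RBCS1* (Cre02.g120100), a small subunit gene, had 397, 308 and 346 CPM in WT HL against 971, 965 and 933 in *phot* HL, 1.45 ± 0.13 higher, while the other copy, *RBCS2*, was at 0.24 ± 0.13 (edgeR, adjusted p = 0.126) and passed with library totals (0.56), with upper-quartile factors (0.41) and without WT LL library C (adjusted p = 0.0386). Reads could have been split between these copies, or left out where they matched both. *EPYC1*, the linker that packs Rubisco in the pyrenoid, was at 0.92 ± 0.13, after -1.75 in LL. Of 4 starch enzymes, 2 branching enzymes rose beyond 2-fold, against 18.7% of all tested genes. *SBE4* (Cre08.g373450) went from 19.2, 15.6 and 15.8 to 63.6, 59.4 and 59.1 CPM (1.85 ± 0.10), and *SBE1* (Cre06.g289850) from 13.5, 13.7 and 11.4 to 31.1, 35.8 and 33.9 CPM (1.38 ± 0.13). In the LCIB family, stromal proteins of the CCM, 0 of 4 genes passed beyond 2-fold, against 34.7% of all tested genes. *LCIB* was at -0.69 ± 0.20 and *LCIC* at -0.62 ± 0.18. Neither passed with library totals (-0.36 and -0.29), nor did *LCIC* with WT HL library A and *phot* HL library A both left out (-0.47). The low-CO2-inducible genes *LCI30* (-1.24 ± 0.11) and *LCI24* (-1.06 ± 0.12) fell, and were under 2-fold with library totals (-0.92 and -0.74). Both had no overlap between the strains, as had 75.7% of all tested genes.

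The 28 further CCM proteins of the study's list held 7 genes lower and 1 higher beyond 2-fold. These were 25% and 3.57%, against 16% and 18.7% of all tested genes. *TEF9* (Cre12.g519300) had 520.4, 374 and 403 CPM in WT HL against 66.7, 66.7 and 67.6 in *phot* HL, at -2.69 ± 0.14. It had been higher in *phot* in LL, by 0.87, and its interaction of -3.56 ± 0.20 was past the threshold. Cre16.g662600 was at 770.0, 117 and 325 against 90.8, 35.1 and 76.2 CPM, with -2.59 ± 0.50, or -1.74 without WT HL library A. Cre10.g452250 was at 2.39, 14.8 and 7.47 against 0.150, 0.167 and 0.160 CPM, with -5.67 ± 0.72, or -4.96 without WT HL library B. It had 278 ± 122 CPM in WT LL against 0.1798 ± 0.155 in *phot* LL, so that it was near 0 in the mutant in both lights. *SMM7* (-1.26 ± 0.14), Cre06.g271850 (-1.18 ± 0.11), Cre06.g261750 (-1.39 ± 0.12) and Cre06.g249750 (-1.37 ± 0.14) completed the 7. Cre16.g652800 rose, from 0.0824, 0.304 and 0.248 to 5.75, 5.09 and 5.76 CPM (4.61 ± 0.24).

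**Figure D4:**
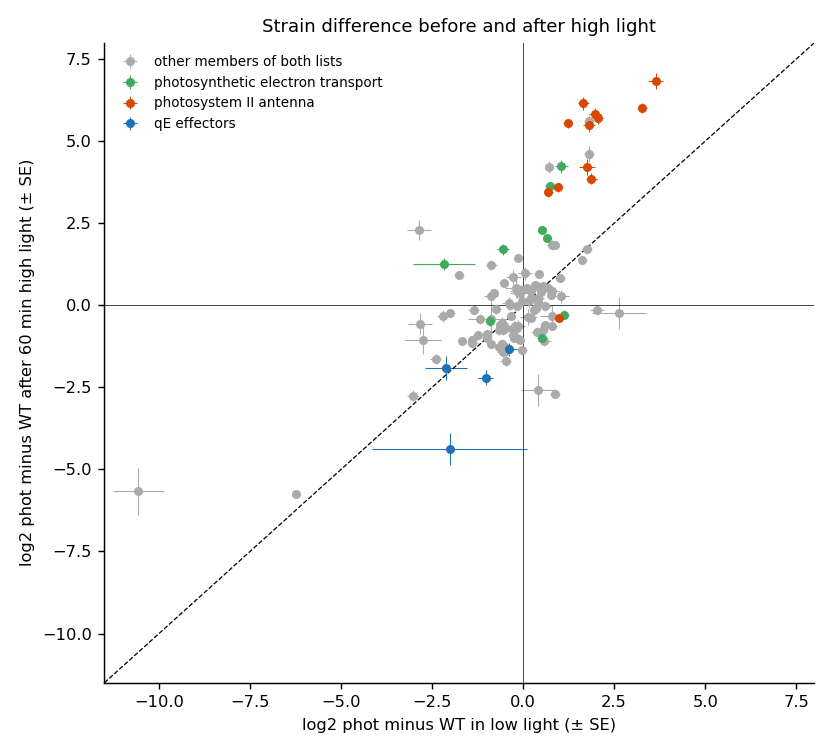
Strain difference (log2 fold change of *phot* minus WT, ± SE) in LL on the horizontal and in HL on the vertical axis, for every tested member of the photoprotection and CCM lists. The dashed line marks equal differences; 11 antenna genes lie above it, at 3.44 to 6.83 in HL and 0.69 to 3.64 in LL, and *LHCB7* lies below it.

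Transcription factors were divided too, with 77 of 383 tested genes higher (20.1%) and 40 lower (10.4%) beyond 2-fold, against 18.7% and 16% of all genes. The largest rise, among those with an average of at least 3 on the log2 CPM scale, was that of *NAB1* (Cre06.g268600), a cytosolic RNA-binding protein known to hold back the translation of *LHCBM* messages, which the study lists here for its cold-shock domain. It had 8.81, 13.7 and 11.3 CPM in WT HL against 397, 407 and 429 in *phot* HL, 5.18 ± 0.19 higher (edgeR, adjusted p = 1.53e-11). In LL the difference was smaller, at 0.49 (edgeR, adjusted p = 0.0106), with 438 ± 69.6 CPM in WT and 614 ± 78.3 CPM in *phot*, and the interaction was 4.70 ± 0.23. WT HL was the lowest of the 4 groups for *NAB1*, as it was for the 11 antenna genes. *GSP1* (Cre02.g109650), a homeodomain protein of plus gametes, had 7.82, 7.73 and 9.17 CPM in WT HL against 159.7, 119.9 and 121 in *phot* HL (4.02 ± 0.21). Cre16.g675100, listed as CONSTANS-like, was 3.83 ± 0.18 higher and Cre07.g349152, a bHLH gene, 3.26 ± 0.22 higher.

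The VARL family, named after a regulator of cell fate in *Volvox*, held 6 of 10 genes higher beyond 2-fold and 0 lower, against 18.7% and 16% of all tested genes, with a median of 1.99. Cre10.g418600 of this family had 2.31, 6.42 and 3.47 CPM in WT HL against 41.5, 44.5 and 31.2 in *phot* HL (3.24 ± 0.26), and in LL 25.5 ± 3.00 CPM in WT and 25.1 ± 3.18 CPM in *phot* (edgeR, adjusted p = 0.934). Cre15.g643700, named after its values were seen, was 3.12 higher.

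The 5 largest falls among transcription factors were all present in LL too. *RWP5* (Cre06.g285600), an RWP-RK gene, was at 82.5, 35.7 and 57.7 CPM in WT HL against 2.40, 0.980 and 2.27 in *phot* HL (-4.99 ± 0.34), with -3.48 in LL and an interaction of -1.51 ± 0.51 (edgeR, adjusted p = 0.0223), the 1 gene of the 5 with a difference past the threshold that was larger in HL. Cre01.g033900, an SBP gene, had 11.98, 8.28 and 8.81 CPM against 0.389, 0.837 and 0.704 CPM (-3.88 ± 0.23) after -5.29 in LL. Cre16.g667450, a TUB gene, was at -3.62 ± 0.17 in HL and -3.68 in LL, Cre10.g436800 at -3.24 ± 0.13 and -4.18, and Cre06.g291500, a further RWP-RK gene, at -2.29 ± 0.25 and -2.65.

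**Figure D5:**
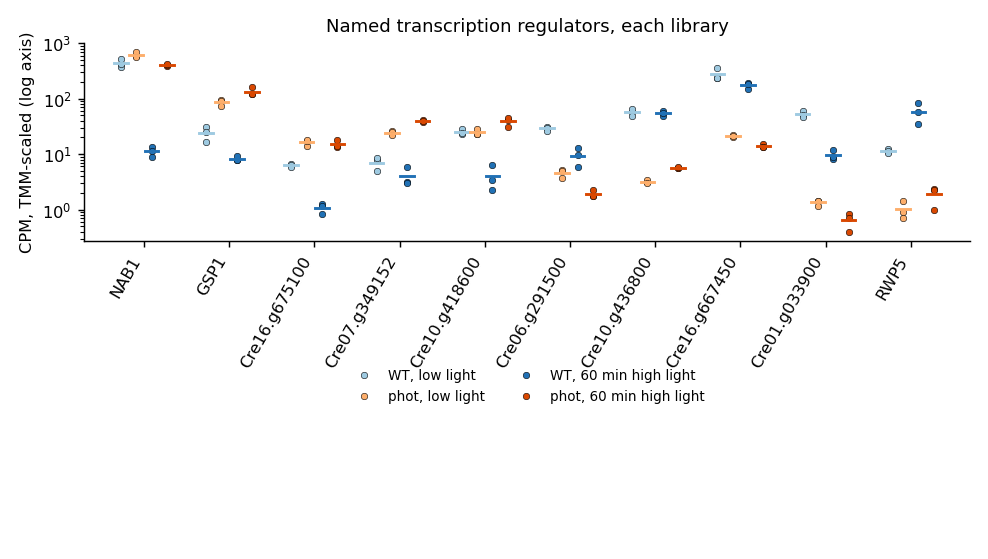
Level of the 10 named transcription regulators in every library, in CPM scaled by TMM on a log axis, with 3 libraries per group as points and their mean as a bar. *NAB1* has 8.81 to 13.7 CPM in WT HL and 397 to 429 CPM in *phot* HL, while the 5 genes on the right are low in *phot* in both lights.

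The study ranked 10 regulators of qE in a network built in part on these samples, so their values are no independent evidence. In HL 1 was higher and 1 lower beyond 2-fold, against 18.7% and 16% of all tested genes. *QER7* (Cre01.g043550) had 2.14, 1.98 and 1.84 CPM in WT HL against 1.14, 0.789 and 0.768 in *phot* HL (-1.14 ± 0.19). It was under 2-fold with library totals (-0.83) and upper-quartile factors (-0.97). Its HL counts were low, at 52, 65 and 52 for WT but 38, 33 and 24 for the mutant. In LL *QER7* was lower too, by -0.58 ± 0.14 (edgeR, adjusted p = 0.00226). The study reports the opposite direction by quantitative PCR, with more *QER7* message in *phot* than in WT. Its cultures were synchronised by light and dark cycles, and the cause of this difference was not tested. *QER1* (Cre17.g738632), of the VARL family, had 1, 1 and 2 counts in WT HL, under a floor of 3 counts per library, and 34, 54 and 28 counts in *phot* HL, a rise of at least 8.65-fold. The clock gene *ROC75* was 0.84 ± 0.13 higher, with 20.4, 23.6 and 22.4 CPM in WT HL against 39.3, 38.0 and 41.4 in *phot* HL. *QER2* was at 0.62 ± 0.14 and Cre16.g676421 at 0.90 ± 0.27, while *LCI8* was at -0.83 ± 0.14, Cre08.g364050 at -0.71 ± 0.13 and *QER5* at -0.33 ± 0.13. *QER5* did not pass with library totals (-0.01) or upper-quartile factors (-0.15), nor without *phot* HL library B (-0.30), *phot* HL library C (-0.34) or WT HL library C (-0.30). *CRCO* (-0.15 ± 0.13) and *ZEP1* (-0.03 ± 0.16), the zeaxanthin epoxidase, overlapped between the strains and did not pass (edgeR, adjusted p = 0.304 and 0.875), though *CRCO* passed without WT HL library B (-0.31, adjusted p = 0.0408). Of 10 regulators that the study ranked in its wider network, 1 was beyond 2-fold, *RWP14* at 2.16 ± 0.17, against 34.7% of all tested genes.

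Over all genes, the 10 largest rises differed in what the strains did in LL. Their identifiers carry no gene name here. Cre12.g544450 had 6.01, 5.02 and 6.69 CPM in WT HL against 1519, 1885 and 1587 in *phot* HL (8.14 ± 0.32), and Cre09.g397623 had 0.700, 0.365 and 0.566 CPM against 99.0, 102 and 88.0 CPM (7.49 ± 0.18) after a difference of 0.91 in LL. Cre12.g543400 had 1, 2 and 1 counts in WT HL, against 633, 760 and 611 in *phot* HL, a rise of at least 153-fold. In contrast Cre06.g292249 (7.30 ± 0.21) and Cre07.g356450 (6.98 ± 0.25) had differences of 6.69 and 7.02 in LL. The other 5 of the 10 lay between 6.87 and 8.01.

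Like the rises above, the 10 largest falls were taken from genes with an average of at least 3 on the log2 CPM scale and no overlap between strains. All were close to 0 in *phot* in both lights. For HL this is what the choice favours, so it is no separate result. Cre09.g405100 had 104, 90.5 and 98.6 CPM in WT HL against 0.419, 0.120 and 0.320 in *phot* HL (-8.45 ± 0.48), and -9.97 in LL. Cre09.g398400, Cre09.g398450 and Cre09.g398500, which neighbour each other on chromosome 9 (1429073 to 1446304), were at -8.26 ± 0.33, -8.21 ± 0.26 and -8.37 ± 0.36, the last at -9.40 without *phot* HL library A. Cre09.g404750, Cre18.g748097 and Cre13.g577352 had at most 3 counts in each *phot* HL library and were at least 139-fold, 242-fold and 176-fold lower there. The remaining 3, Cre18.g748297, Cre04.g228950 and Cre06.g270050, lay between -7.83 and -7.23, with Cre04.g228950 at -8.75 without *phot* HL library C. Of the genes beyond 2-fold over the whole table, 67.2% of those higher and 53.3% of those lower had a strain difference in HL that differed from that in LL past the threshold. For all tested genes this share was 51.8%. The HL difference that selected these genes is also a term of the interaction, so the shares are no independent evidence.

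Neighbouring genes were examined next. Of 14122 pairs of tested neighbours, 1197 (8.48%) were beyond 2-fold in the same direction and 700 (4.96%) in opposite directions. There were 68 runs of at least 4 neighbours in the same direction, 45 higher and 23 lower. The longest held 7 genes. On chromosome 14 (1396617 to 1430880) the genes from Cre14.g617400 to Cre14.g617700 lay between -4.61 and -1.78. The first of them had 275, 139.9 and 119 CPM in WT HL against 8.27, 6.86 and 6.65 in *phot* HL. On chromosome 9 (10448 to 57227) those from Cre09.g386113 to Cre09.g386161 were higher, by 1.19 to 3.16, and the highest of them, Cre09.g386149, was at 4.04 without WT HL library B. The tested genes around *PHOT1* (chromosome 3, 8321420 to 8329663) went both ways, with Cre03.g198950 on one side at -0.96 and, on the other, Cre03.g199090 at 2.39 and Cre03.g199150 at 4.09, the last with 1.04 ± 0.264 CPM in WT HL against 18.0 ± 0.233 in *phot* HL (SD, n = 3).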

How the data were processed

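RNA was sequenced from 12 libraries in 4 groups of 3, and the depth of the HL libraries was 27463779 to 33906264 counts. The authors aligned the reads with STAR (2.5.3a in the submitters' processing notes) to version 5 of the genome assembly and counted them by strand with HTSeq, and the deposited values are whole-number counts per gene for 17741 genes, of which 719 had no count. Columns name the group, so the libraries of a group are lettered A to C in column order, and 0 columns were left unused. Replicates were compared by chi-square per degree of freedom (7.69 to 67.66 in HL), and none were duplicates. Since the labels do not name separate cultures, p-values measure only the spread between these libraries.

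Genes above 1 CPM in at least 4 libraries were tested (14251) with the edgeR 4.0.16 quasi-likelihood test in R 4.3.3, with TMM factors, 1 coefficient per group over the 12 libraries and Benjamini-Hochberg adjustment over all tested genes at 0.05. The interaction was the HL difference minus the LL difference. On simulated counts for 14251 genes the test recovered 40% of 50 genes changed 1.5-fold, 90% at 2-fold and 100% at 4-fold and 8-fold. It called 0.0996% of unchanged genes, which made up 7.82% of its calls, above the nominal level of 5%. In the simulation 14051 of the genes were unchanged, whereas 73.5% were called in the data, so this false share does not carry over to the data. Folds against genes under 3 counts in a library are bounds at that floor. Alternatives were other scalings, no filter, HL libraries alone, DESeq2 1.42.0, limma 3.58.1 (voom) and each library left out.

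Gene lists came from the study's supplementary lists, and the members and lists were chosen with earlier results of these data known. Named were *PHOT1*, the 5 qE effectors, the 10 PHOT network regulators, in each subgroup the 3 largest rises and falls beyond 2-fold, the 5 largest rises and falls among transcription factors and the 10 over all genes (average of at least 3 on the log2 CPM scale, no overlap between strains), and the 2 longest runs of neighbours, since 5 runs tied for the next place. All antenna and electron transport genes, the neighbours of *PHOT1* and other genes named were added after their values were seen. Positions are those of the RefSeq annotation, in which 17738 of the 17741 identifiers matched. Promoter motifs and lists by product name were not analysed here.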

Additional observations from a re-analysis of the deposited data

Results flagged for a closer look

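For 74 of the 100 tested named genes, and for further members named above, the strain difference in HL differed from that in LL. This was judged by the interaction test (adjusted p under 0.05 in edgeR, Benjamini-Hochberg). Values are the log2 difference of *phot* minus WT in HL minus the same in LL, so that a positive value means a *phot* level that was relatively higher in HL. Over all tested genes 51.8% passed this test, and no cause was tested. Many named genes were chosen by the size of their HL difference, which is also a term of the interaction. Their count is therefore no independent evidence and cannot be set against the share of all tested genes.

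In the photosystem II antenna the value was positive for *LHCBM1* (1.99), *LHCBM2* (4.32), *LHCBM3* (3.64), *LHCBM4* (4.50), *LHCBM5* (2.47), *LHCBM6* (3.85), *LHCBM7* (3.18), *LHCBM8* (2.75), *LHCBM9* (3.69), *LHCB4* (2.62) and *LHCB5* (2.74), and negative for *LHCB7* (-1.38). In electron transport it was positive for *PSBQ* (3.18), *ULP1* (2.89), *PSAG* (1.75), *PSAH* (1.39), *PSAK* (2.25) and *CYC6* (3.42), and negative for *PSBP3* (-1.51) and *PSBP4* (-1.40).

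Among other photoprotection genes it was positive for the gene listed as ELI3 (3.81), *PSBR* (2.10), *CHR1* (0.57) and *PHOT1* (0.50), and negative for *LHCSR3.1* (-1.17), *LHCSR3.2* (-0.96), *ELI1* (-1.66), *ELI2* (-0.88), *STT7* (-0.59), *ZEP1* (-0.63), *CHR2* (-0.96), *NF-YC* (-0.77) and *CRCO* (-0.46). Of the CCM genes, *LCI1* (5.15), *RHP1* (3.49), *CCP2* (1.67), *CAH9* (1.05), *CAH6* (0.77), *RBCS1* (1.58), *SBE4* (0.97), Cre16.g652800 (2.81) and Cre10.g452250 (4.90) had positive values, and *CAH3* (-1.20), *LCI30* (-0.73), *TEF9* (-3.56) and Cre16.g662600 (-2.99) negative ones.

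Among regulators it was positive for *NAB1* (4.70), *GSP1* (2.20), Cre16.g675100 (2.43), Cre07.g349152 (1.48), Cre10.g418600 (3.26), Cre01.g033900 (1.41), Cre10.g436800 (0.93), *QER1* (4.26) and *QER2* (0.62), and negative for *RWP5* (-1.51), *LCI8* (-1.48), *QER5* (-1.09) and Cre08.g364050 (-0.92). Of the largest differences over all genes, Cre12.g543400 (5.34), Cre12.g544450 (5.93), Cre10.g460150 (3.73), Cre09.g397623 (6.58), Cre16.g652300 (2.55), Cre12.g512300 (2.46), Cre03.g190250 (5.49), Cre03.g146567 (2.95), Cre09.g398500 (2.42) and Cre18.g748297 (1.49) passed. In the runs of neighbours these were Cre09.g386113 (0.67), Cre09.g386119 (1.37), Cre09.g386137 (1.57), Cre09.g386149 (1.31) and Cre09.g386143 (-1.29), and Cre14.g617400 (-2.55), Cre14.g617450 (-2.78), Cre14.g617500 (-0.81), Cre14.g617600 (-2.37) and Cre14.g617650 (-2.68). Cre09.g398500, Cre18.g748297 and Cre10.g452250 were near 0 in *phot* in both lights, so that their fitted values depend on the prior count. *QER1* and Cre12.g543400 were under 3 counts in each WT HL library, so their interaction values depend on it too.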

How the results depend on the processing

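No paired analysis was possible because the count columns name the group but carry no replicate number. Over the other scalings, no filter, HL libraries alone, DESeq2, limma-voom and libraries left out in turn, 3663 gene values in HL kept direction and side of the threshold, 77 lost the call, 46 gained it and 3 reversed. Library totals gave 1495 genes lower beyond 2-fold, with 7 photoprotection genes, 7 CCM genes, 23 transcription factors and 0 PHOT network regulators lower, and with 3 PHOT network and 3 wider network regulators higher. Upper-quartile factors gave 7 photoprotection genes, 9 CCM genes and 0 PHOT network regulators lower, and 3 PHOT network and 2 wider network regulators higher. Either form of limma-voom, a fit with weights, gave 2 PHOT network regulators higher, and leaving out WT HL library A and *phot* HL library A together gave 2 wider network regulators higher. Reversed values were *ELI5*, not called at -0.22 and at -0.74 without WT HL library B, at 0.94 without WT HL library A and 0.83 (adjusted p = 0.0317) with both A libraries left out, and Cre01.g054850 at 0.30 with library totals. The cause was not tested. With each library left out in turn, the genes called ranged from 9750 to 10734, those higher beyond 2-fold from 2471 to 2813 and those lower from 2233 to 2443, 4704 to 5256 together. Higher and lower members ranged from 14 to 16 and 10 to 13 (photoprotection), 13 to 14 and 12 to 18 (CCM), 73 to 80 and 38 to 42 (transcription factors), 1 to 2 and 1 to 1 (PHOT network regulators), and 1 to 2 and 0 to 0 (wider network). Interaction calls among the named genes ranged from 67 to 75. Depth limits genes under 3 counts per library, for which the HL folds are given as bounds, while their interactions are fitted values.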
